A study of Mus musculus with 10 samples.

Results

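The glucocorticoid receptor gene Nr3c1 and 8 genes that glucocorticoids are known to induce, Fkbp5, Tsc22d3, Sgk1, Zbtb16, Ddit4, Errfi1, Dusp1 and Tdo2, were followed in the livers of lung-tumour-bearing mice with and without cachexia. The genes were listed by name, from knowledge of the pathway but with earlier results of these data known. All 9 were found among the 43629 genes of the count table and passed the filter on low counts. RNA was measured by poly(A) RNA-seq in 10 livers of male KL mice (an inducible, engineered model of lung cancer whose alleles include Lkb1 flox/flox, backcrossed to FVB), in which both groups had received intranasal Adenovirus CMV-Cre as adults of 12 to 20 weeks, so that lung tumours arose in the cells the virus reached, and there was no tumour-free group. The 5 CACS mice (cancer anorexia–cachexia syndrome, a loss of more than 15% of peak body weight) had weight changes of -33 to -29%, and the 5 NCACS mice, labelled non-cachectic, of -14 to -3%. The labels numbered the mice 11 to 15 (NCACS) and 16 to 20 (CACS), and total counts per liver ran from 31459179 to 40746178. The labels gave neither a batch nor the time of day at which the livers were taken.

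Glucocorticoids are steroid hormones of the adrenal gland. In the absence of hormone the receptor is held in the cytoplasm by a chaperone complex built on HSP90 and HSP70. Hormone binding frees the receptor to enter the nucleus, where it binds DNA as a dimer at a palindrome of hexamers, the glucocorticoid response element, or acts through other transcription factors. In the liver it is known for raising gluconeogenesis and amino acid breakdown during fasting and stress, and some of its targets feed back on hormone signalling or on kinase pathways.

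Of the 9 genes, 3 rose in CACS livers and none fell in edgeR's quasi-likelihood test, which compared the groups on the counts with Benjamini-Hochberg adjustment over 14143 tested genes and a threshold of 0.05. These were Zbtb16, Fkbp5 and Dusp1, with fold changes of 6.04, 4.84 and 3.70. Over all tested genes, 3.80% passed in either direction and 1.89% as higher in CACS livers. Before adjustment 6 of the 9 genes had p under 0.05, each with a higher mean in CACS livers, against 11.3% of all genes. Earlier results of these data were known when the 9 genes were chosen, so these shares describe the list and do not test it. The estimates were above 0 for 7 genes and below 0 for Nr3c1 and Tdo2. The median log2 fold change was 0.64 for the 9 genes and -0.01 for all tested genes. DESeq2 called the same 3 genes, against 4.75% of all genes called higher, whereas limma-voom called only Fkbp5 and a robust edgeR fit only Zbtb16. In bulk tissue, fewer cells of a type and less RNA per cell cannot be told apart.

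**Figure D1:**
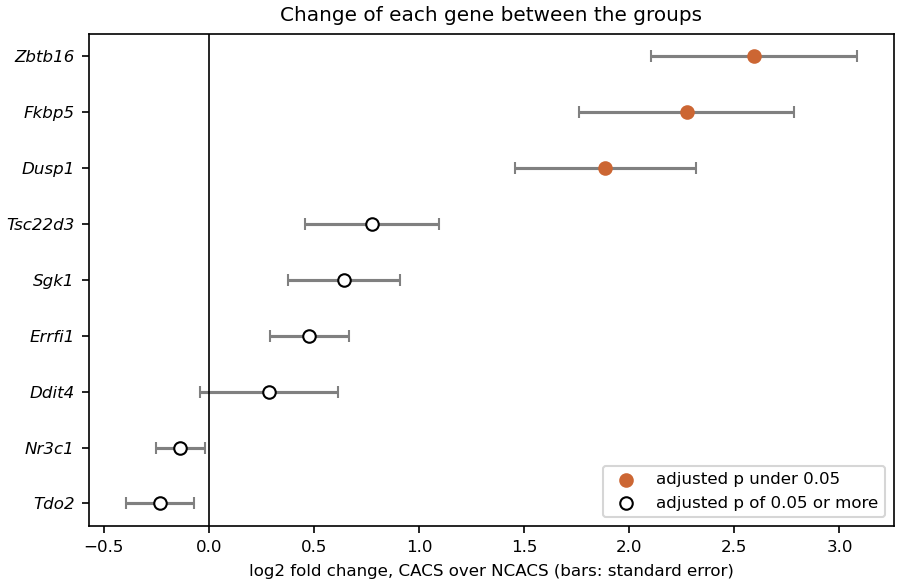
Log2 fold change of each gene, CACS over NCACS livers (x axis), with filled points for an adjusted p under 0.05. Bars are standard errors derived from the F statistic of edgeR's quasi-likelihood test (5 livers per group). Zbtb16, Fkbp5 and Dusp1 lie at 1.89 or above, and Nr3c1 and Tdo2 lie below 0.

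The receptor gene did not pass the test. Nr3c1 (ENSMUSG00000024431, chromosome 18 of GRCm38, 39410545 to 39519421, reverse strand) had 79.2, 70.8, 60.3, 85.7 and 91.3 CPM (counts scaled to the TMM-normalized library size) in NCACS mice 11 to 15 and 76.6, 71.1, 76.5, 63.0 and 65.3 CPM in CACS mice 16 to 20. The ranges overlapped, and every CACS liver lay within the NCACS range. The means were 77.5 ± 12.3 CPM (SD, n = 5) and 70.5 ± 6.28 CPM (SD, n = 5), and edgeR's log2 fold change was -0.14 (SE 0.117, adjusted p = 0.538). Here and below, SE is a standard error derived from edgeR's test, as the size of the log2 fold change divided by the square root of its F statistic. An exact permutation of mean log2 CPM over all 252 assignments of the livers gave a two-sided p of 0.333, where 0.00794 was the smallest p it could give. With each liver left out in turn the estimate stayed between -0.21 and -0.07.

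Fkbp5 (ENSMUSG00000024222, chromosome 17, 28399094 to 28517527, reverse strand) encodes FKBP51, an HSP90 co-chaperone that lowers the hormone affinity of the receptor and so closes a negative feedback loop. It measured 35.1, 53.6, 38.2, 13.4 and 12.3 CPM in NCACS mice 11 to 15. The CACS mice 16 to 20 had 227, 33.0, 161, 141 and 175 CPM. All CACS livers other than that of mouse 17 exceeded every NCACS liver, while mouse 17 fell within the NCACS range. Group means were 30.5 ± 17.6 and 148 ± 71.6 CPM (SD, n = 5 each), with a log2 fold change of 2.27 (SE 0.511, edgeR adjusted p = 0.0359). The exact permutation p was 0.0317. The call held in edgeR's test without NCACS mouse 12 or CACS mouse 17 (adjusted p = 0.0153 without the latter) and was lost without NCACS mouse 11, 13, 14 or 15 or CACS mouse 16, 18, 19 or 20, with adjusted p of 0.0588 to 0.0769 and log2 fold changes of no less than 2.07.

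Fkbp4, a close relative of Fkbp5, encodes FKBP52, another HSP90 co-chaperone of the receptor, and had a log2 fold change of -0.17 (SE 0.144, edgeR adjusted p = 0.530). Per kilobase of exon (all annotated exons of a gene together), Fkbp4 measured 50.3 and 44.7 CPM in NCACS and CACS livers, and Fkbp5 measured 3.22 and 15.6 CPM. The difference between the fold changes of these genes was not tested.

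The promoter of Fkbp5 is shown because the gene was among those that rose. It is the window of 250 bases upstream of the RefSeq start, chr17:28486150-28486399 on the reverse strand of GRCm38.p6, written 5′ to 3′ in the direction of transcription. Capitals mark motif matches, here an E-box (CACGTG) with its first base at -169, where -1 is the base just before the start.
Fkbp5: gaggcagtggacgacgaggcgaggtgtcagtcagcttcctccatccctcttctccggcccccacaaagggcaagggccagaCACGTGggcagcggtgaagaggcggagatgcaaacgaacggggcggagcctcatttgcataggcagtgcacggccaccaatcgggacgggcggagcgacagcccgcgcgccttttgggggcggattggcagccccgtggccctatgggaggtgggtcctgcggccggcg
Windows from RefSeq covered 7 of the 9 genes, 15 windows in all, and Nr3c1 and Zbtb16 are named only. Both strands of each window were searched for the glucocorticoid response element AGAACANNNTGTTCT, its half-site AGAACA, the cAMP response element TGACGTCA and the E-box CACGTG. The half-site is part of the full element. The full element occurred in 0.00913% of 32851 windows (3 windows), the half-site in 16.1%, the cAMP response element in 1.55% and the E-box in 6.02%. A match describes the letters of the window and not a bound site.

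Of the targets that encode transcriptional regulators, Zbtb16 and Tsc22d3, both had higher means in CACS livers, and Zbtb16 passed the test. Zbtb16 (ENSMUSG00000066687, chromosome 9, 48654297 to 48836222, reverse strand) encodes PLZF, a zinc finger repressor. Its levels were 4.09, 6.80, 7.83, 2.89 and 9.33 CPM in NCACS mice 11 to 15 against 65.1, 7.34, 46.6, 31.2 and 36.4 CPM in CACS mice 16 to 20. As for Fkbp5, mouse 17 was the only CACS liver inside the NCACS range, and mouse 16 was the highest. Mean levels were 6.19 ± 2.65 and 37.4 ± 21.2 CPM (SD, n = 5 each), the log2 fold change was 2.59 (SE 0.490, edgeR adjusted p = 0.0222) and the exact permutation p was 0.0238. The call was lost only without NCACS mouse 11 (edgeR adjusted p = 0.0569) and was strongest without CACS mouse 17 (adjusted p = 0.00333).

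Tsc22d3 (ENSMUSG00000031431, chromosome X, 140539528 to 140600659, reverse strand) encodes GILZ, a leucine zipper protein that carries part of the anti-inflammatory action of glucocorticoids. In NCACS mice 11 to 15 it had 52.5, 101, 80.7, 125 and 66.4 CPM, and in CACS mice 16 to 20 it had 167, 238, 70.6, 95.0 and 158 CPM. Mice 16, 17 and 20 exceeded all NCACS livers, and mice 18 and 19 did not. The log2 fold change of 0.78 (SE 0.319, edgeR unadjusted p = 0.0322, adjusted p = 0.186) did not pass, and the exact permutation p was 0.103. Of its relatives, Tsc22d1 had a log2 fold change of -0.91 (edgeR adjusted p = 0.0553) and Tsc22d4 of -0.33 (0.378), the opposite sign. Tsc22d2 had the same sign, at 0.44 (edgeR unadjusted p = 0.0208, adjusted p = 0.148).

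**Figure D2:**
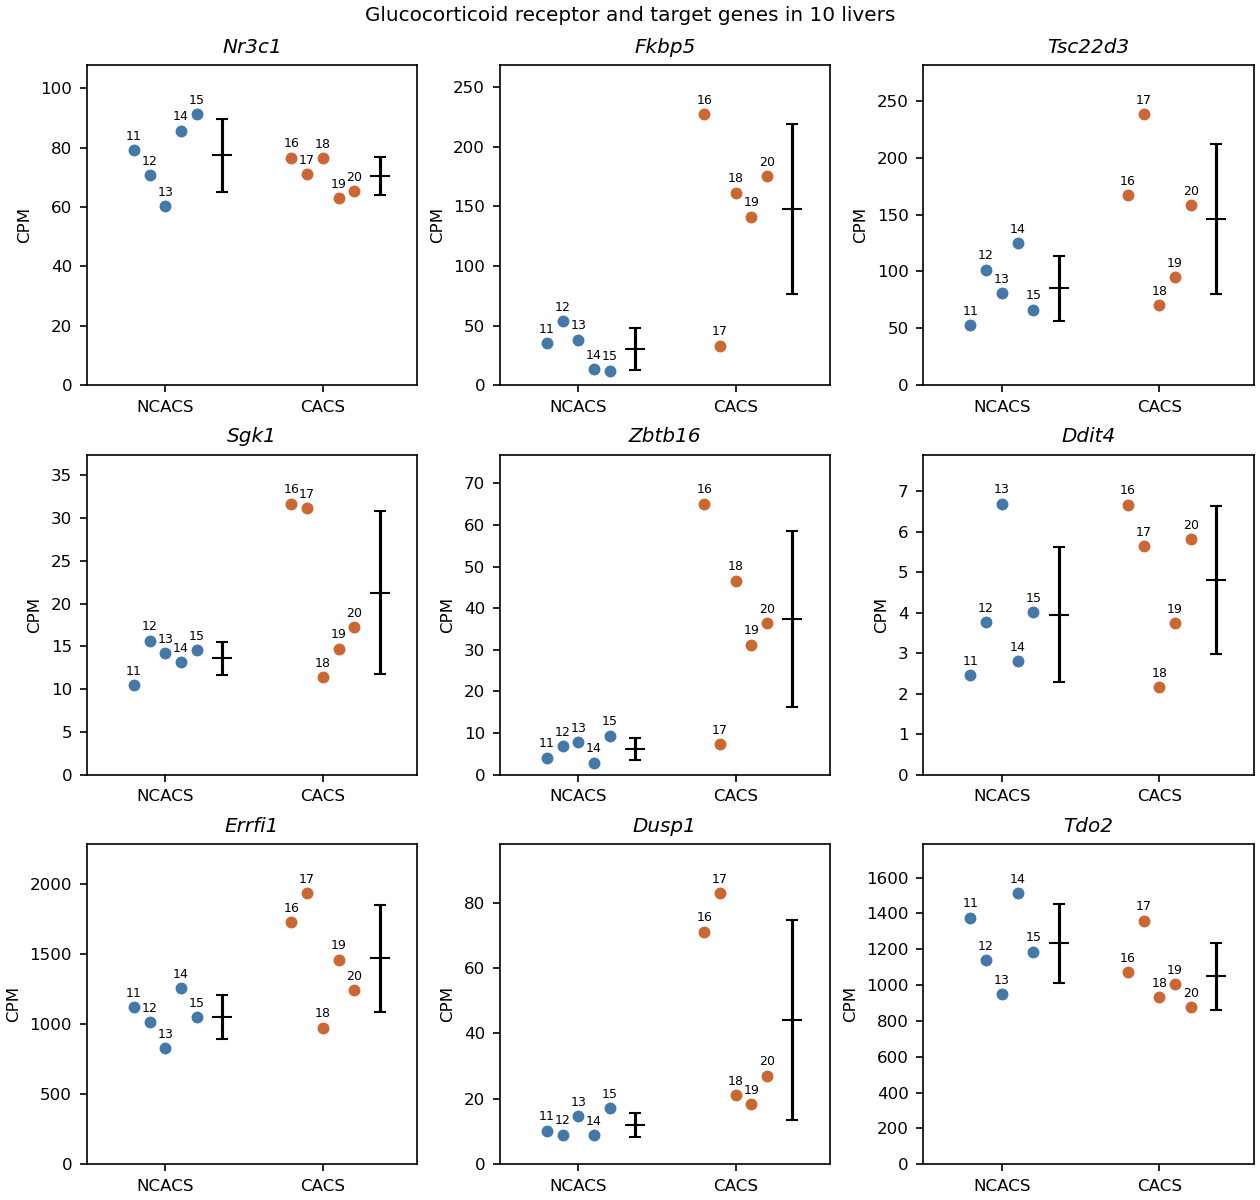
CPM of the 9 genes in each liver (y axes, linear and from 0; points numbered by mouse; bars, mean ± SD of 5 livers). In the Fkbp5 and Zbtb16 panels CACS mouse 17 sits among the NCACS livers at 33.0 and 7.34 CPM, whereas it is the highest point for Tsc22d3, Errfi1 and Dusp1.

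Dusp1 was the only one of the 9 genes whose groups did not overlap. Over all tested genes, every CACS liver lay above every NCACS liver in 3.95%. Dusp1 (ENSMUSG00000024190, chromosome 17, 26505590 to 26562128, reverse strand) encodes a phosphatase that inactivates the MAP kinases p38, JNK and ERK. NCACS mice 11 to 15 had 10.2, 8.99, 14.6, 8.79 and 17.1 CPM. CACS mice 16 to 20 had 71.1, 82.9, 21.1, 18.3 and 27.1 CPM. Mice 16 and 17 stood far above the other CACS livers, whose lowest value was close to the highest NCACS value. The means were 11.9 ± 3.73 and 44.1 ± 30.5 CPM (SD, n = 5 each), and the log2 fold change was 1.89 (SE 0.430, edgeR adjusted p = 0.0374). Its exact permutation p of 0.00794 was the smallest the design allows. The adjusted p from edgeR's test passed without CACS mouse 18 (0.0390) or 19 and was lost without NCACS mouse 11, 12, 13, 14 or 15 or CACS mouse 16, 17 or 20, with values of 0.0524 to 0.0822.

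Exons of Dusp1 overlap those of Ergic1 on the opposite strand in the annotation, and the strand setting of the counting was not given in the sources used here, so whether reads of these genes were told apart is not known. Ergic1 fell, with a log2 fold change of -0.34 (SE 0.0805, edgeR adjusted p = 0.0419), from a range of 76.0 to 88.1 CPM to one of 61.6 to 72.2 CPM, the opposite direction to Dusp1. The Ergic1 call held without CACS mouse 18 (adjusted p = 0.0451) and was lost with any other liver left out (0.0664 to 0.0968).

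Errfi1 and Sgk1 also had higher means in CACS livers without passing the adjusted threshold. Errfi1 (ENSMUSG00000028967, chromosome 4, 150853919 to 150868892, forward strand) encodes MIG6, a feedback inhibitor of the EGF receptor. It had 1121, 1016, 827, 1258 and 1051 CPM in NCACS mice 11 to 15 and 1730, 1937, 976, 1459 and 1244 CPM in CACS mice 16 to 20. Mice 16, 17 and 19 were above all NCACS livers, and mouse 18 was lower than 4 of the 5. The estimated log2 fold change was 0.48 (SE 0.190, edgeR unadjusted p = 0.0272, adjusted p = 0.169), with an exact permutation p of 0.0714.

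Sgk1 (ENSMUSG00000019970, chromosome 10, 21882184 to 21999903, forward strand) encodes a serum- and glucocorticoid-induced kinase that acts on ion channels and on FOXO factors. Its values were 10.5, 15.7, 14.2, 13.1 and 14.5 CPM in NCACS mice 11 to 15 and 31.7, 31.2, 11.4, 14.7 and 17.2 CPM in CACS mice 16 to 20. Mice 16, 17 and 20 exceeded all NCACS livers, with mice 16 and 17 far above the rest, and mouse 18 lay below 4 of the 5 NCACS livers. The log2 fold change was 0.64 (SE 0.266, edgeR unadjusted p = 0.0328, adjusted p = 0.188), and the exact permutation p was 0.151. Sgk2, a related kinase, had a log2 fold change of -1.14 (edgeR adjusted p = 0.0631), from 27.7 to 12.6 CPM per kilobase, while Sgk1 went from 2.77 to 4.33 CPM per kilobase. Without CACS mouse 17 Sgk2 passed (edgeR adjusted p = 0.00249).

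The windows of Sgk1, Dusp1 and Errfi1 are shown for their motif matches. The Sgk1 window, chr10:21993640-21993889 on the forward strand, held 1 of the 3 full glucocorticoid response elements found in all windows (first base at -189), besides a separate half-site (-242) whose letters overlap an E-box (-246). The Dusp1 window, chr17:26508473-26508722 on the reverse strand, held a cAMP response element (-143) and an E-box (-126). The Errfi1 window, chr4:150854820-150855069 on the forward strand, held a cAMP response element (-51). Capitals mark these matches.
Sgk1: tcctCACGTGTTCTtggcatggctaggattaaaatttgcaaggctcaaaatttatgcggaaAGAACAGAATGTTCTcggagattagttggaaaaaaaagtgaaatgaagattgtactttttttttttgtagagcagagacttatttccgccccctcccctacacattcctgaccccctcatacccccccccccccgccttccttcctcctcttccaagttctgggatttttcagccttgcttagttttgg
Dusp1: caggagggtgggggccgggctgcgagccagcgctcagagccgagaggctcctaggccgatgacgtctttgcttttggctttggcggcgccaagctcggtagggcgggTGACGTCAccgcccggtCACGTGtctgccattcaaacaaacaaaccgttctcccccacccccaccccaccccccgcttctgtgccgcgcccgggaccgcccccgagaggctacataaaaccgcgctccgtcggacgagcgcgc
Errfi1: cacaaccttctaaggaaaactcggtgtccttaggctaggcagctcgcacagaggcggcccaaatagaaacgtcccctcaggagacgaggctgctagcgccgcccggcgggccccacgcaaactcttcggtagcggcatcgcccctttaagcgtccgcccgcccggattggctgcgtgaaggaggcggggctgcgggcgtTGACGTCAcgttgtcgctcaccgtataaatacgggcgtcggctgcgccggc
Half-sites also occurred in 2 of the other Sgk1 windows and in 1 window of Tsc22d3. The windows of Fkbp5 and Dusp1 had no half-site, which says only that these letters are not within them.

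For Ddit4 and Tdo2 the groups overlapped and neither gene passed the test. Ddit4 (ENSMUSG00000020108, chromosome 10, 59949669 to 59951834, reverse strand) encodes REDD1, an inhibitor of mTORC1, and was counted at low depth, with 66 to 267 counts per liver. It measured 2.46, 3.76, 6.69, 2.80 and 4.01 CPM in NCACS mice 11 to 15 and 6.67, 5.64, 2.15, 3.75 and 5.81 CPM in CACS mice 16 to 20. Its log2 fold change was 0.29 (SE 0.329, edgeR adjusted p = 0.659; exact permutation p = 0.5), an estimate whose error exceeds it.

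Tdo2 (ENSMUSG00000028011, chromosome 3, 81957090 to 81976202, reverse strand) encodes tryptophan 2,3-dioxygenase, the hepatic enzyme that opens the tryptophan ring and a long-known glucocorticoid-induced activity of liver. NCACS mice 11 to 15 had 1375, 1138, 948, 1514 and 1186 CPM, and CACS mice 16 to 20 had 1072, 1359, 933, 1005 and 877 CPM. All CACS livers other than that of mouse 17 were below the NCACS mean, with overlap between the groups. Its log2 fold change was -0.23 (SE 0.162, edgeR adjusted p = 0.435), and the exact permutation p was 0.167. Ido2, another tryptophan-cleaving dioxygenase, had a log2 fold change of -0.47 (edgeR adjusted p = 0.0912). Of the 11 relatives of the listed genes that could be tested, edgeR called 0, with 4 at an unadjusted p under 0.05, while DESeq2 called 3 and limma-voom 1. Over all 14143 tested genes, 3051 had an unadjusted p under 0.05, and DESeq2 called 1386 and limma-voom 509.

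The order of the CACS livers differed from target to target. Mouse 16 ranked 1st or 2nd of the 10 livers for each of Fkbp5, Zbtb16, Tsc22d3, Sgk1, Ddit4, Errfi1 and Dusp1. Mouse 17 ranked 1st for Tsc22d3, Errfi1 and Dusp1, 2nd for Sgk1 and 4th for Ddit4, but 8th for Fkbp5 and 7th for Zbtb16. Mouse 18 went the other way for most of these genes. It ranked 3rd for Fkbp5 and 2nd for Zbtb16 but 8th for Tsc22d3, 9th for Sgk1 and Errfi1 and 10th for Ddit4. Dusp1 was an exception, since mouse 18 ranked 4th for it, above every NCACS liver. The contrast between mice 17 and 18 was noticed in the values and was not tested. Weight changes were within -33 to -29% in all CACS mice.

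**Figure D3:**
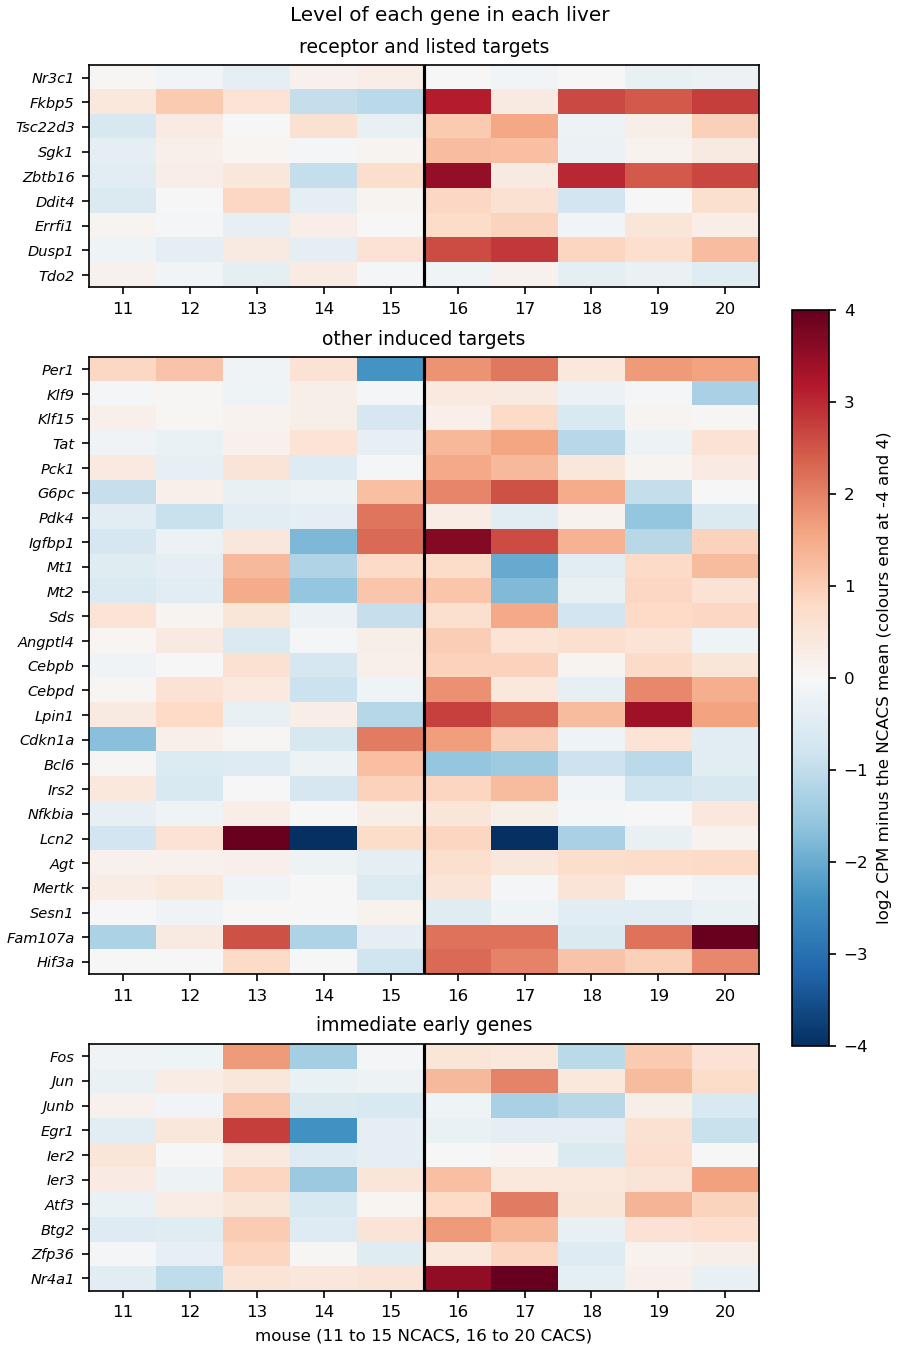
Log2 CPM of each gene (rows) in each liver (columns, NCACS left and CACS right of the line) minus the NCACS mean, with red for higher and blue for lower levels. Among the 9 genes, CACS mouse 17 is pale for Fkbp5 and Zbtb16 and dark for Dusp1, and in the lowest panel Nr4a1 is dark red in CACS mice 16 and 17.

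Per kilobase of exon, the 9 genes spanned a wide range. Lengths were those of all annotated exons of a gene together, whether or not liver transcripts use them, which limits comparison between genes. In NCACS livers the order of mean level was Tdo2 (318 CPM per kilobase), Errfi1 (294), Tsc22d3 (19.6), Nr3c1 (10.1), Dusp1 (3.61), Fkbp5 (3.22), Sgk1 (2.77), Ddit4 (2.25) and Zbtb16 (1.17). The ranges over livers were separate at the steps from Errfi1 to Tsc22d3, from Tsc22d3 to Nr3c1 and from Nr3c1 to Dusp1, and overlapped between all other neighbours. In CACS livers Errfi1 (410) stood before Tdo2 (270), followed by Tsc22d3 (33.6), Fkbp5 (15.6), Dusp1 (13.3), Nr3c1 (9.18), Zbtb16 (7.07), Sgk1 (4.33) and Ddit4 (2.74), and only Tdo2 and Tsc22d3 were neighbours without overlap. Fkbp5 and Dusp1, below the receptor in NCACS livers, had means above it in CACS livers. The ranges of both overlapped that of Nr3c1 there, and Fkbp5 was below the receptor in mouse 17. Dusp1 was above the receptor only in mice 16 and 17. In mice 18, 19 and 20 Dusp1 had 6.37, 5.54 and 8.18 CPM per kilobase against 9.96, 8.20 and 8.50 for Nr3c1.

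The wider pathway was read from lists of genes by role. Receptor machinery, the chaperones and coregulators that bring the receptor to hormone and to chromatin, had 0 of 21 genes called by edgeR, with 2 higher and 1 lower at an unadjusted p under 0.05, and a median log2 fold change of -0.01. DESeq2 called 1 of them, Hspa8, and limma-voom 0. Of all 14143 tested genes, 1596 were higher and 1455 lower at an unadjusted p under 0.05, and DESeq2 called 1386. Hspa8 encodes the constitutive HSP70 that loads the receptor onto HSP90 and had a log2 fold change of 0.58 (SE 0.159, edgeR adjusted p = 0.0633 and 0.00942 from DESeq2). NCACS livers ran from 259 to 447 CPM and CACS livers from 449 to 629 CPM, without overlap. The mediator subunit Med1 had a log2 fold change of 0.20 (edgeR adjusted p = 0.160).

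Genes of hormone supply within the liver, which regenerate, bind or break down glucocorticoids, likewise had 0 of 6 called by edgeR and 0 by limma-voom. At an unadjusted p under 0.05, 2 of the 6 were lower, against 1455 of all 14143 tested genes. DESeq2 called 1, H6pd (adjusted p = 0.0319), which encodes the enzyme that makes NADPH for 11β-HSD1. H6pd averaged 634 CPM in NCACS livers against 459 CPM in the CACS group, with a log2 fold change of -0.47 (SE 0.152, edgeR adjusted p = 0.106). The 5α-reductase gene Srd5a1, of glucocorticoid breakdown, had a log2 fold change of -0.37 (edgeR adjusted p = 0.201). Hsd11b1, encoding 11β-HSD1 itself, averaged 766 and 885 CPM, with a log2 fold change of 0.21 (edgeR adjusted p = 0.532); it was named after its values were seen. Hsd11b2, with at most 1 count per liver, was not tested.

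Among 25 other genes known to be induced by glucocorticoids, edgeR and limma-voom each called 3, and DESeq2 called 6. Over all tested genes edgeR called 3.80%, limma-voom 3.6% and DESeq2 9.8%. With edgeR the 3 genes of the list were Lpin1, Hif3a and Agt, all higher in CACS livers. At an unadjusted p under 0.05, 10 genes were higher and 2 lower, against 1596 and 1455 of all 14143 tested genes. Estimates were above 0 for 19 genes and below 0 for 6, with a median log2 fold change of 0.52. DESeq2 added Cebpd as higher and Bcl6 and Sesn1 as lower.

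Lpin1 encodes lipin 1, a phosphatidate phosphatase and coactivator. It had 92.2, 124, 58.2, 85.5 and 31.9 CPM in NCACS mice 11 to 15 and 476, 356, 172, 753 and 216 CPM in CACS mice 16 to 20, without overlap. Its log2 fold change was 2.33 (SE 0.439, edgeR adjusted p = 0.0220), and it passed the threshold with any of the 10 livers left out.

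Agt, which encodes angiotensinogen, had 828, 830, 859, 651 and 584 CPM in NCACS mice against 1164, 1012, 1217, 1236 and 1253 CPM in CACS mice. Its groups did not overlap, and CACS mouse 17 was the lowest of its group. The log2 fold change was 0.65 (SE 0.138, edgeR adjusted p = 0.0311), and the call was lost without NCACS mouse 11, 14 or 15 or CACS mouse 16, 18, 19 or 20 (adjusted p = 0.0530 to 0.0658). Hif3a rested on 2 to 37 counts per liver and had a log2 fold change of 1.96 (edgeR adjusted p = 0.0302), lost without NCACS mouse 11, 12, 14 or 15 or CACS mouse 16 or 20 (0.0558 to 0.0694).

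Of 13 inflammatory genes that glucocorticoids are known to repress, 8 were expressed enough to test. None passed in edgeR (0 genes, and 0 at an unadjusted p under 0.05), DESeq2 (0) or limma-voom (0), and the estimates were split between 4 above and 4 below 0. The chemokine genes Ccl5 and Cxcl10 had log2 fold changes of -1.35 and -0.996 (edgeR adjusted p = 0.390 and 0.678), with standard errors of 0.863 and 1.19. NCACS mouse 13 decided these signs, since without it the values were 0.78 and 0.38 (adjusted p = 0.197 and 0.882).

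**Figure D4:**
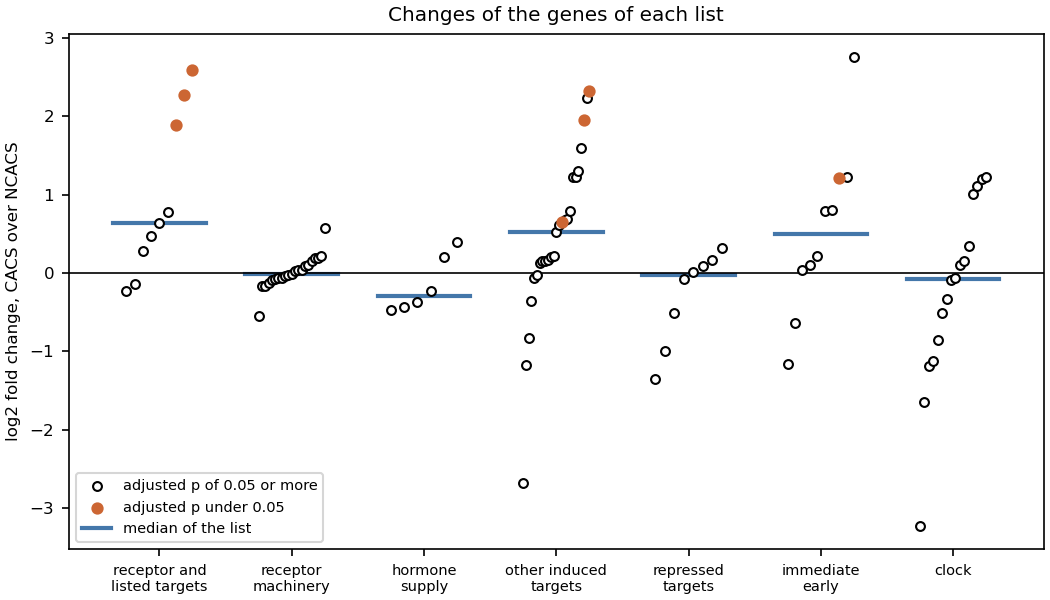
Log2 fold change, CACS over NCACS, of every tested gene of 7 lists (y axis; filled points, adjusted p under 0.05 from edgeR's test; horizontal lines, list medians). The medians are 0.64 for the receptor and listed targets, -0.01 for receptor machinery, 0.52 for other induced targets and -0.03 for repressed targets.

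Dusp1 also belongs to the genes that respond within minutes to many stimuli, so other immediate early genes were set beside it. Of 10 tested, DESeq2 called 3, limma-voom 0 and edgeR 1, Jun, which encodes an AP-1 subunit. Jun had 4.33, 6.42, 7.31, 4.37 and 4.57 CPM in NCACS mice 11 to 15 and 13.1, 21.1, 7.08, 12.8 and 8.73 CPM in CACS mice 16 to 20. Mouse 18 was the only CACS liver within the NCACS range. The log2 fold change was 1.22 (SE 0.279, edgeR adjusted p = 0.0374), and the call was lost without NCACS mouse 11, 12, 14 or 15 or CACS mouse 16 or 19 (adjusted p = 0.0570 to 0.0838). Atf3, a stress-induced factor, had a log2 fold change of 1.22 (edgeR adjusted p = 0.0580). Estimates were above 0 for 8 of the 10 genes, 3 of them at an unadjusted p under 0.05 in edgeR's test. The list median was 0.50. Junb (-0.63) and Egr1 (-1.16) were below 0 (edgeR adjusted p = 0.343 and 0.389). Over all 14143 tested genes, DESeq2 called 1386, limma-voom 509 and edgeR 538.

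Nr4a1, an orphan nuclear receptor gene singled out after its values were seen, had 23.1 and 41.8 CPM in CACS mice 16 and 17 and no more than 2.75 CPM in any other liver. These are the livers that were highest for Dusp1, Sgk1 and Errfi1. The part of immediate early induction in the Dusp1 result was not tested.

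Several of the listed targets vary with the time of day, and clock genes were therefore measured as well. Of 16 clock genes edgeR called 0, with 3 higher and 2 lower at an unadjusted p under 0.05, DESeq2 called 2 and limma-voom 0. Over all 14143 tested genes, 1596 were higher and 1455 lower at an unadjusted p under 0.05, and DESeq2 called 1386. Nr1d1, encoding the repressor REV-ERBα, had a log2 fold change of -1.65 (edgeR adjusted p = 0.0930), and Npas2, a partner of BMAL1, of -3.22 (adjusted p = 0.123), which was -1.13 without NCACS mouse 15. NCACS mouse 15 stood apart from the other NCACS livers, with 7.81 CPM of Npas2 against at most 0.873 CPM in the other 9 livers, and with 5.84 CPM of Per1 against at least 27.4 CPM. Mouse 15 also had the largest weight loss of its group (-14%). It stood apart in some genes outside the clock list as well. Pdk4 and Bcl6 had 22.1 and 88.5 CPM there, against at most 3.76 and 39.7 CPM in the other NCACS livers. Klf9, at 68.3 CPM, lay within the range of those livers. These genes were picked after their values were seen. Per1, itself a glucocorticoid target, is also among the other induced targets above and is counted in both lists. It had 54.2, 66.8, 27.4, 45.5 and 5.84 CPM in NCACS mice 11 to 15 and 105, 131, 40.6, 98.8 and 93.3 CPM in CACS mice 16 to 20, and was named after its values were seen. Without mouse 15, the log2 fold changes of Zbtb16, Fkbp5 and Dusp1 were 2.79, 2.08 and 2.05 (edgeR adjusted p = 0.0355, 0.0628 and 0.0537). The part of time of day in these results was not tested.

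Markers of liver cell types were set beside these results. The 6 hepatocyte markers analysed were the most abundant, with sums of 71750–119207 CPM in the NCACS group and 109533–140233 CPM in the CACS group. Hnf4a, a hepatocyte transcription factor, rose (log2 fold change 0.50, edgeR adjusted p = 0.0435), and Cyp2e1 had a log2 fold change of 0.31 (0.268). Of the 6 hepatocyte markers, 4 had estimates above 0 and 2 below. The Hnf4a call held without CACS mouse 18 (0.0417) and was lost with any other liver left out (0.0516 to 0.0974). All 7 Kupffer cell markers had estimates below 0, 5 of them at an unadjusted p under 0.05, and DESeq2 called 3 and limma-voom 1. In edgeR's test 1 of them, Cd5l, fell, with a log2 fold change of -0.90 (edgeR adjusted p = 0.0374). That call was lost without NCACS mouse 11, 12, 13 or 15 or CACS mouse 16, 17, 18 or 20 (0.0513 to 0.0862). Adgre1, which encodes F4/80, had a log2 fold change of -0.96 (edgeR adjusted p = 0.0583). The Kupffer cell sums were 156–263 CPM in the NCACS group against 94.2–182 CPM in the CACS group, in which mouse 17 was the lowest. Leukocyte markers summed to 10.9–32.5 and 7.45–15.5 CPM, with 0 of 8 called by edgeR or limma-voom, 5 lower at an unadjusted p under 0.05 and 3 called by DESeq2. Beside these Kupffer cell and leukocyte counts, 1455 of all 14143 tested genes were lower at an unadjusted p under 0.05. Over all genes edgeR called 538, DESeq2 1386 and limma-voom 509. S100a8, a neutrophil gene, had a log2 fold change of -1.79 (edgeR adjusted p = 0.111).

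Endothelial markers summed to 141–202 and 174–227 CPM, stellate cell markers to 181–284 and 190–289 CPM and cholangiocyte markers to 33.6–52.7 and 20.3–49.4 CPM, in NCACS and CACS livers respectively. EdgeR, DESeq2 and limma-voom each called 0 of these. In edgeR's test 0 of 7, 2 of 7 and 1 of 5 had an unadjusted p under 0.05, against 3051 of 14143 tested genes. By the smallest p these lists were led by Pecam1 (0.22) and Lyve1 (0.62), Col1a1 (-1.27) and Col3a1 (-0.96), and Krt7 (-1.24) and Sox9 (-0.43), in log2 fold changes. These genes do not stand for their lists. Estimates were above 0 for 5 endothelial markers and below 0 for 2. The stellate list had 4 above and 3 below, with a median of 0.03, and the cholangiocyte list 1 above and 4 below. No marker tested was at 0 in any liver. The part of cell composition in the results on Fkbp5, Zbtb16 and Dusp1 was not tested.

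The genes whose levels varied most like these within groups were taken from 9200 genes with a mean of at least 5 CPM, by Pearson's r of log2 CPM over the 10 livers after subtracting each group's mean. For Nr3c1 they were Mtfr1 (r = 0.981), Mospd2 (0.979) and Cd59a (0.973). For Fkbp5 they were Tspan4 (0.980), Syk (0.965) and Rad54l2 (0.965), and for Zbtb16 Fn1 (0.925), Lpgat1 (0.923) and Irgq (0.916). For Dusp1 they were Ppp1r15a (0.957), Arl4d (0.932) and Irf2bp2 (0.930). These values are a description of 10 livers that share their libraries and depth, and the highest correlations among 9200 genes.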

How the data were processed

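Livers of 5 NCACS and 5 CACS mice were compared. The authors mapped single reads from TruSeq stranded mRNA libraries with STAR 2.4.1d (GRCm38), assigned them to Ensembl genes with HTSeq 0.6.1 and deposited raw counts; the annotation release and strand setting were not given in the sources used here. Symbols came from GENCODE M21, which lacked 1167 identifiers. Low counts were removed by filterByExpr, and TMM factors went into the quasi-likelihood test of edgeR 4.0.16 (limma 3.58.1, R 4.3.3), fitted to both groups without covariates, with Benjamini-Hochberg adjustment over all genes and a threshold of 0.05. Log2 CPM used a prior count of 2. Single genes were also tested by exact permutation, two-sided. The scripts were tested on simulated data. Alternatives were DESeq2 1.42.0, limma-voom, other scalings and filters, a robust fit and leaving out each liver. Within a group, counts of any 2 livers differed by a chi-square of at least 50.4 times its degrees of freedom, so none was a duplicate. Depth ranged from 31459179 to 40746178 counts, and low genes such as Hif3a carry the most counting error.

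The 9 genes and all lists were chosen with earlier results of these data known. From other lists, the genes named were those past the threshold (at most 4 in each direction) or, where fewer than 2 passed, the 2 with the smallest unadjusted p. Nr4a1, Per1, Hsd11b1, Fkbp4, Ido2, Ergic1, Tsc22d2, Tsc22d4, Junb, Egr1, Pdk4, Klf9 and the calls of DESeq2 were named outside this rule, after their values were seen. Another allele of the mouse model and 1 leukocyte marker that the rule names are not reported here.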

Additional observations from a re-analysis of the deposited data

Results flagged for a closer look

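Fkbp5 in CACS mouse 17 lay far from the other CACS livers: it had 33.0 CPM against 141 to 227 CPM, and on the log2 CPM scale, on which the gaps were measured, its gap to the nearest liver was 0.753 of the group's whole range. It was the only such value among 18 combinations of a gene and a group examined, and chance gives about 1 in 20. Without this mouse the log2 fold change of Fkbp5 was 2.53 (edgeR adjusted p = 0.0153).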

How the results depend on the processing

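Of the 9 genes, 3 passed the threshold under DESeq2, raw library totals, RLE or upper-quartile factors, no filter, a minimum of 10 counts in every liver, library sizes without the 10 most abundant genes and an adjusted p under 0.1. Limma-voom called 1 (Zbtb16 and Dusp1 were lost with adjusted p of 0.0546 and 0.0634) and the robust edgeR fit 1 (Fkbp5 and Dusp1 were lost with adjusted p of 0.0569 and 0.0572), and leaving out each liver gave 0 to 2, with 0 without NCACS mouse 11. DESeq2 called 1 gene of the receptor machinery, 1 of hormone supply and 6 of the other induced targets. Over all genes it called 1386 against 538 for edgeR. With each liver left out, edgeR's test called 1 to 4 of the other induced targets and 178 to 519 of all genes. The cause of these differences was not tested. No direction reversed in any of the 9 genes. For named genes outside the 9, the same alternatives were chosen after seeing the data; with livers left out, Ccl5 ranged from -1.63 to 0.78 and Cxcl10 from -2.43 to 0.38, reversing without NCACS mouse 13, Hnf4a was lost with no filter (adjusted p = 0.0763) and Ergic1 with raw library totals or no filter (0.0517 and 0.0804). In the exact permutation test Fkbp5 lost its call in 6 of the 10 sets with a liver left out (p = 0.0635), and Tsc22d3, Sgk1 and Errfi1 passed without CACS mouse 18 (p = 0.0476, 0.0317 and 0.0317), as did Tdo2 without CACS mouse 17 (p = 0.0476). No paired analysis was possible because the mice are numbered separately in each group. With 5 livers per group, an adjusted p near 0.05 moved across the threshold with single livers. Counting error is largest for genes of few counts, such as Hif3a, and Ddit4 had the fewest counts of the 9 genes.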
